A study of Homo sapiens with 10 samples.

Results

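Connexins and pannexins are the proteins that build gap junctions and large-pore membrane channels, and their transcripts were compared between EA.hy926 and HMEC-1 cells, both immortal lines of human endothelium. The 7 genes described were chosen by symbol: the connexin genes GJA1, GJA4, GJA5, GJB2 and GJC1 and the pannexin genes PANX1 and PANX2, out of 60448 genes listed. All 7 were present in the count table and 4 of them, GJA1, GJC1, PANX1 and PANX2, had enough counts to be tested.

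RNA-seq was performed on untreated, wild-type cells grown to confluent monolayers, with 5 independent biological replicates of each line. EA.hy926 is a hybrid made by fusing human umbilical vein endothelial cells with A549 lung carcinoma cells, so its genome is partly of epithelial origin, and it was kept in Advanced DMEM with 5% FBS. HMEC-1 cells come from dermal microvessels and carry the SV40 large T antigen, and their medium was MCDB 131 with 10% FBS, EGF at 10 ng/mL and hydrocortisone at 1 µg/mL. Each vessel type was thus represented by 1 established line in its own medium, and effects of line, origin and medium cannot be told apart. Library totals ran from 34846046 to 39899324 counts for EA.hy926 and from 33391640 to 43877224 counts for HMEC-1. At these depths 3 counts make 0.0781 to 0.0904 CPM (CPM, counts scaled to the library total and its TMM factor) for the former and 0.0651 to 0.0856 CPM for the latter. In both lines the endothelial genes PECAM1, CDH5 and TIE1 were abundant: 12 endothelial marker genes summed to 4555 to 5217 CPM (EA.hy926) or 1655 to 1705 CPM (HMEC-1), with EMCN at no more than 3 counts in EA.hy926. For 12 epithelial marker genes the EA.hy926 libraries summed to 1275 to 1389 CPM against 429 to 491.5 CPM for HMEC-1, while CDH1, KRT5, KRT14 and ESRP1 had at most 3 counts in every library. A list of 12 mural and fibroblast marker genes came to 414 to 471.5 CPM in EA.hy926, mostly RGS5, against 485.5 to 510 CPM for HMEC-1, mostly COL1A1, with LUM and DCN at no more than 3 counts in either line. The part of other cell programmes or of the epithelial fusion partner in the differences below was not tested. In bulk RNA, fewer cells that express a gene and less RNA of it per cell cannot be told apart.

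Connexins assemble into hexameric hemichannels in the plasma membrane, and hemichannels of neighbouring cells dock to form gap junction channels that pass ions, calcium and small second messengers from cell to cell. Pannexins share the membrane topology of connexins but form channels that open to the outside, through which cells release ATP. In vascular endothelium connexin 43 (GJA1), connexin 37 (GJA4) and connexin 40 (GJA5) are the connexins usually described, the last being typical of arteries, and the electrical coupling they give lets a vasomotor response spread along a vessel.

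GJA1 was the connexin with the most reads in both lines, and the sequence around its transcription start is shown with those of PANX1, another gene read in every library, and of GJB2, which was almost without reads, to set the start regions of a high, an intermediate and a near-silent gene beside each other. The windows hold 250 bases before and 50 bases after the start, come from RefSeq with build GRCh38.p14, and are written 5′ to 3′ on the strand of the gene. Windows were found for 4 of the 7 genes, the other one being GJA5. Positions are counted from the start, with negative numbers before it. Capitals mark TGANTCA, the consensus of AP-1 factors, and GGGCGG, the core of the GC box bound by Sp1-type factors, both searched on both strands (a GC box on the other strand reads CCGCCC), with no overlap between the marked matches. The GJA1 window, chr6:121435396-121435695 on the plus strand, holds TGAGTCA at -48. The PANX1 window, chr11:94128591-94128890 on the plus strand, holds 1 GC box at -43. The GJB2 window, chr13:20192889-20193188 on the minus strand, holds 3 GC boxes, at -155, -97 and -85.
GJA1: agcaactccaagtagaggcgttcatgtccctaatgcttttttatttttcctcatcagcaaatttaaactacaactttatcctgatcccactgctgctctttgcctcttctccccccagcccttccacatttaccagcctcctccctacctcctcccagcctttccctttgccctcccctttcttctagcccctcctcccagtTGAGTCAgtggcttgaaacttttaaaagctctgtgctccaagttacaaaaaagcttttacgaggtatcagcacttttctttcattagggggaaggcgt
PANX1: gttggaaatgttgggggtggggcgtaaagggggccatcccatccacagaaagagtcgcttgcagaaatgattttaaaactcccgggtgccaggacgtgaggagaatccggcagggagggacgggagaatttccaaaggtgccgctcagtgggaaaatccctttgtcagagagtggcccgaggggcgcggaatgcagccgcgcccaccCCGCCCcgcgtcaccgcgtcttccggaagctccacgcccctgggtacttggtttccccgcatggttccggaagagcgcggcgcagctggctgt
GJB2: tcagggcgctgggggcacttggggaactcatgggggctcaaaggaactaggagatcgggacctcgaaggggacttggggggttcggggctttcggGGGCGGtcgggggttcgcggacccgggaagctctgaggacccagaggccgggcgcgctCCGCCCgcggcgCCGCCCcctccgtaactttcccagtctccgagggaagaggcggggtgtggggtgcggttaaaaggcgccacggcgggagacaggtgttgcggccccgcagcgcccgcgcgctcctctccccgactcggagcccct
Of 34943 RefSeq promoter windows of this length, 7.72% held TGANTCA and 44.9% held GGGCGG, and TATAAA, held by 11.6%, was in none of the windows of the 4 genes. The GJA1 window had a GC content of 47.0% and 3 CpG dinucleotides, a number below which 18.3% of all windows fell, against medians of 58.7% and 14 over all windows. PANX1 had a GC content of 62.3% with 24 CpG dinucleotides and GJB2 one of 71.7% with 33, while the first of the windows of GJA5 (chr1:147773302-147773601, minus strand) had 55.3% and 4 and held neither motif. The second window of GJA5 had 45.7% and 0 and held neither motif. Over the windows printed, GC content and CpG number were higher where the transcript level was lower. GJA5, also almost without reads, lay between GJA1 and PANX1 with its first window and below GJA1 with its second. A relation between base composition and transcript level was not tested with these 4 genes.

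GJA1 encodes connexin 43, the most widely expressed gap junction protein (ENSG00000152661, GRCh38 chr6:121435595-121449727, plus strand). It was counted 23525, 21745, 23077, 24830 and 24074 times in EA.hy926 replicates 1 to 5 and 11333, 13734, 15206, 13283 and 12003 times in HMEC-1 replicates 1 to 5. After scaling this was 637, 655, 657, 646 and 649 CPM for EA.hy926 against 323, 337, 330, 326 and 314 CPM for HMEC-1. Every EA.hy926 library lay above every HMEC-1 library and the spread within a line was small, with means of 649 ± 8.02 CPM and 326 ± 8.32 CPM (SD, n = 5 per line). GJA1 was 1.99-fold higher in EA.hy926, with a log2FC (log2 of EA.hy926 over HMEC-1) of 0.99 (SE 0.024, adjusted p = 1.0e-19, edgeR's quasi-likelihood test with Benjamini-Hochberg adjustment over 16310 genes). A gene was called when its adjusted p was under 0.05 and its absolute log2FC was over 1, and GJA1 lay just inside that limit and was not called. Without EA.hy926 replicate 1 the log2FC was 1.006 and without EA.hy926 replicate 4 it was 1.001, both past the limit, so the difference in level was firm while the call was decided by the threshold. Tested against the limit itself with glmTreat, the adjusted p was 0.929. The summed endothelial and epithelial markers given above were higher in EA.hy926 as well. KRT7 and KRT8 made up most of the epithelial sum there (622 and 546 CPM). Of the epithelial markers 7 were tested, and KRT8 (log2FC 4.83) and EPCAM (1.83) were called higher in EA.hy926. KRT19 (-4.71), CLDN7 (-4.54) and CLDN4 (-1.42) were called lower. Of the 12 endothelial markers 6 were called higher and 2 lower. The part of these markers in the GJA1 difference was not tested.

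GJC1 encodes connexin 45, a low-conductance connexin of the early vascular wall, smooth muscle and the conduction system (ENSG00000182963, chr17:44798448-44830816, minus strand), and it went the other way. Its counts were 1130, 979, 1143, 1094 and 1095 in EA.hy926 and 3229, 3606, 4360, 3801 and 3636 in HMEC-1. In CPM these were 30.6, 29.5, 32.6, 28.5 and 29.5 against 92.1, 88.4, 94.6, 93.3 and 95.1. The lines did not overlap: the lowest HMEC-1 library was well above the highest EA.hy926 library. Mean levels were 30.1 ± 1.55 and 92.7 ± 2.68 CPM (SD, n = 5), or 3.08-fold higher in HMEC-1, with a log2FC of -1.62 (SE 0.035, adjusted p = 1.7e-20, edgeR). GJC1 was the 1 gene called among the 4 tested, beside 35.5% of all 16310 genes called. In the direction of higher levels in EA.hy926 none of the 4 was called, against 19.1% of all genes, and in the other direction 1 was, against 16.4%. By adjusted p alone all 4 differed between the lines, which 85.8% of all genes did, with 3 higher in EA.hy926 (42.6% of all genes) and 1 lower (43.3%). With glmTreat the adjusted p of GJC1 was 5.6e-14, and its log2FC stayed between -1.65 and -1.60 when any 1 library was left out. Mural cells also express GJC1, and of 12 mural and fibroblast markers 9 were tested, with 2 called higher and 6 called lower in EA.hy926, where CNN1, PDGFRA and COL3A1 had no more than 3 counts. RGS5 made up most of the EA.hy926 sum with 430.0 CPM, against 5.05 CPM in HMEC-1. ACTA2, the smooth muscle actin, was also called higher in EA.hy926 (log2FC 2.68, 6.26 against 0.973 CPM). By contrast, COL1A1 (log2FC -10.13), CSPG4 (-8.34), PDGFRB (-4.64) and TAGLN (-4.47) had the direction of GJC1, as did the list's median log2FC of -4.49. The part of these markers in the GJC1 difference was not tested.

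PANX1 encodes the ubiquitous pannexin channel that releases ATP and is opened by caspase cleavage (ENSG00000110218, chr11:94128841-94181968, plus strand). The EA.hy926 libraries held 660, 564, 599, 692 and 623 counts, and the HMEC-1 libraries 366, 399, 520, 457 and 406. These made 17.9, 17.0, 17.1, 18.0 and 16.8 CPM for EA.hy926 against 10.4, 9.78, 11.3, 11.2 and 10.6 CPM for HMEC-1. All EA.hy926 libraries were higher, by 1.62-fold on average (17.3 ± 0.555 against 10.7 ± 0.615 CPM, SD, n = 5), and the log2FC of 0.70 (SE 0.052, adjusted p = 4.0e-11, edgeR) did not reach the fold limit.

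PANX2 encodes a larger pannexin best known from neurons (ENSG00000073150, chr22:50170731-50180295, plus strand) and was the least abundant of the 4. It had 172, 192, 191, 185 and 187 counts in EA.hy926 and 114, 119, 113, 125 and 134 in HMEC-1, which gave 4.66, 5.79, 5.44, 4.82 and 5.04 CPM against 3.25, 2.92, 2.45, 3.07 and 3.51 CPM. Again no HMEC-1 library reached an EA.hy926 library, although the spread was wider at these low counts (5.15 ± 0.462 and 3.04 ± 0.396 CPM, SD, n = 5). The level was 1.70-fold higher in EA.hy926 with a log2FC of 0.76 (SE 0.10, adjusted p = 5.4e-07, edgeR), and leaving out any 1 library moved the log2FC between 0.68 and 0.81. The pannexins thus differed in the same direction and by similar log2FC values, both below the fold limit.

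**Figure D1:**
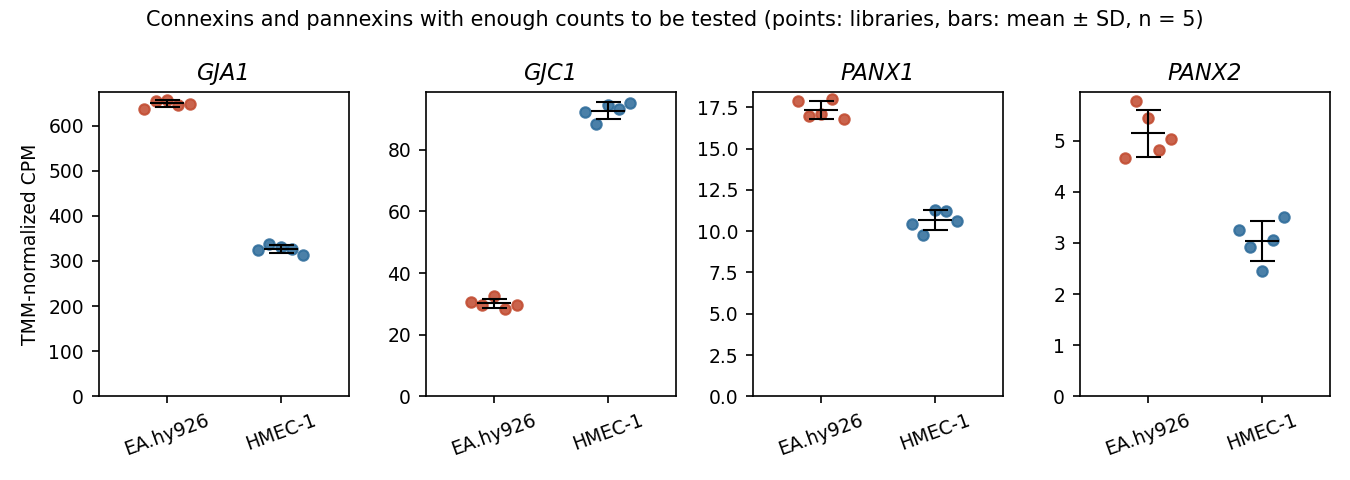
TMM-normalized CPM (axes from 0) of GJA1, GJC1, PANX1 and PANX2 in the 5 libraries of EA.hy926 (red) and HMEC-1 (blue), with bars for mean ± SD. GJA1, PANX1 and PANX2 were higher in every EA.hy926 library, and GJC1 was higher in every HMEC-1 library, 92.7 against 30.1 CPM on average.

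The other 3 connexins chosen, among them the arterial GJA4 and GJA5, had few reads or none in both lines. GJA4 (connexin 37, ENSG00000187513, chr1:34792999-34795747, plus strand) had 0, 1, 0, 1 and 0 counts in EA.hy926 and 4, 7, 8, 9 and 0 counts in HMEC-1. HMEC-1 replicate 5 had none, so the lines overlapped, and the mean of 0.136 ± 0.0849 CPM in HMEC-1 (SD, n = 5) was at least 1.5-fold higher than what 3 counts per library make in EA.hy926. GJA5 (connexin 40, ENSG00000265107, chr1:147756199-147773362, minus strand) was at 0 counts throughout EA.hy926 and at 0, 0, 3, 0 and 0 counts in HMEC-1, and 20.3% of its exonic bases are also covered by another annotated gene. GJB2 (connexin 26, ENSG00000165474, chr13:20187463-20192938, minus strand), an epithelial connexin whose loss causes hereditary deafness, had 0 counts in all EA.hy926 libraries and 0, 0, 1, 0 and 1 in HMEC-1. A count of 0 in EA.hy926 still allows levels of up to 0.0904 CPM, a limit that covers counting error only, since reads were counted without molecular identifiers. These 3 genes were below the filter on low counts and were not tested, and presence below that limit was not detectable at this depth.

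Other connexin and pannexin genes reported here were as sparse. Of 13 such genes beyond the 7 chosen, none had enough counts to be tested, 6 had 0 counts in every library and 3 had no more than 3 counts in any library. GJA3, GJB5, GJC3 and GJD3 reached at most 9 counts. GJA3, a lens connexin, was read 4 to 9 times in EA.hy926 but 0 to 2 times in HMEC-1, and GJB5, a connexin of skin, had 0 to 5 and 1 to 3. GJC3 had 5 to 9 and 0 to 7 counts, with 20.5% of its exonic bases under another gene. GJD3 had 1 to 4 and 3 to 7 counts, but 51.2% of its exonic bases lie under the antisense gene GJD3-AS1, which itself had 60 to 76 counts in EA.hy926 against 151 to 191 for HMEC-1, and without the strand of the counting the reads of these genes cannot be told apart. GJA1P1, a processed copy of GJA1 on chromosome 5, took 3 to 6 counts in EA.hy926 against 0 to 4 for HMEC-1, few beside those of GJA1.

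Levels of different genes were compared as CPM per kb of merged exons. In EA.hy926 the order was GJA1 with 191 ± 2.36 CPM per kb, PANX1 with 6.08 ± 0.195, GJC1 with 3.46 ± 0.178, PANX2 with 1.66 ± 0.149 and GJC3 with 0.148 ± 0.0403 (SD, n = 5 each). Over the same genes the HMEC-1 order was GJA1 with 96.0 ± 2.45, GJC1 with 10.6 ± 0.307, PANX1 with 3.74 ± 0.216, PANX2 with 0.979 ± 0.127 and GJA4 with 0.0793 ± 0.0495. Neighbours in these orders did not overlap between libraries, and below them GJA4 overlapped GJC3 in HMEC-1. PANX1 stood above GJC1 in EA.hy926 and below it in HMEC-1. On the CPM scale without division by exon length, GJC1 was above PANX1 in both lines. The means were 30.1 against 17.3 CPM in EA.hy926 and 92.7 against 10.7 CPM in HMEC-1. Among all 16310 genes tested, 97.7% had a lower level per kb than GJA1 in EA.hy926 and 96.7% in HMEC-1. GJC1 had 49.2% of the genes below it in EA.hy926 and 73.4% in HMEC-1, PANX1 61.2% and 51.2%, and PANX2 36.9% and 31.1%.

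**Figure D2:**
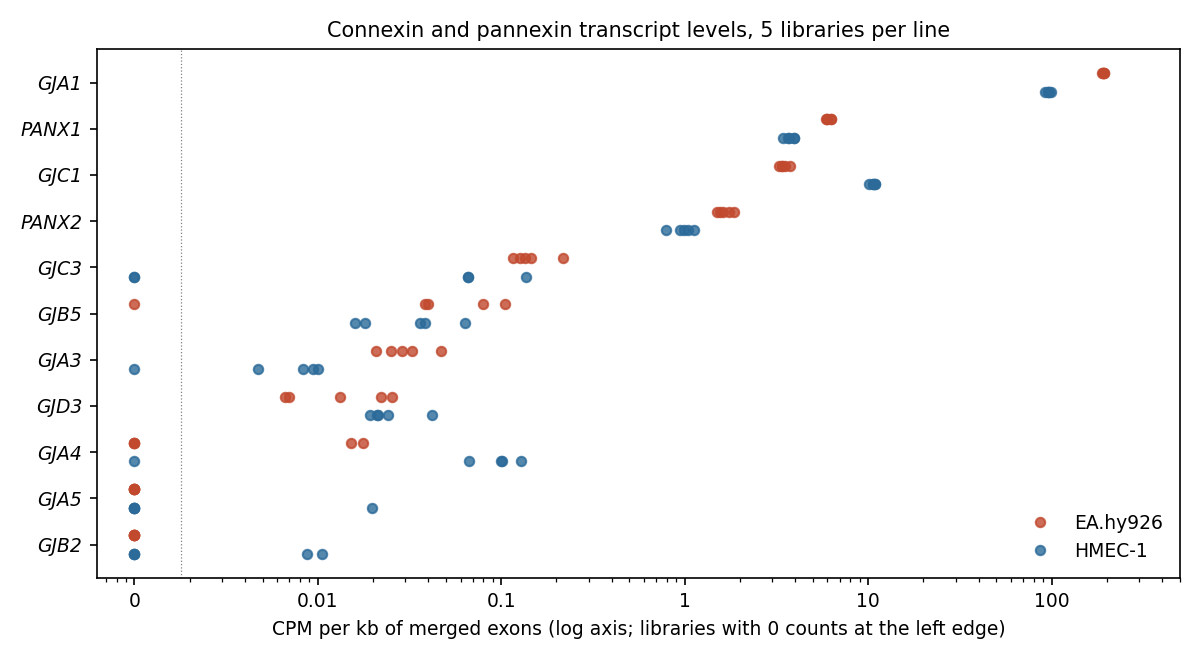
CPM per kb of merged exons (log axis) of the 11 named connexin and pannexin genes in each library of EA.hy926 (red) and HMEC-1 (blue), with libraries at 0 counts drawn at the left edge. GJA1 lay at 191 and 96.0 CPM per kb on average, GJC1 at 3.46 and 10.6, and GJA4, GJA5 and GJB2 were at or close to 0.

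The make-up of the connexin transcripts followed from these levels. Over the 5 connexins chosen, GJA1 made up 98.2% ± 0.0821 of the summed CPM per kb in EA.hy926 and 89.95% ± 0.435 in HMEC-1 (SD, n = 5). GJC1 made up 1.78% ± 0.0855 and 9.97% ± 0.457, shares that became 4.44% and 22.1% on the CPM scale without division by exon length. For every 100 units of GJA1 there were 1.81 ± 0.0886 of GJC1 in EA.hy926 and 11.1 ± 0.561 in HMEC-1, with library ranges of 1.72 to 1.93 and of 10.2 to 11.8 that did not overlap. The summed level of the 5 connexins was 195 ± 2.42 CPM per kb in EA.hy926 and 107 ± 2.27 in HMEC-1, and that of the pannexins was 7.74 ± 0.138 and 4.72 ± 0.213. PANX1 was 78.6% ± 1.92 of the pannexin total in EA.hy926 and 79.2% ± 2.57 in HMEC-1, with library ranges of 76.2% to 80.7% and 76.7% to 83.4%. For every 100 units of PANX1 there were 27.3 ± 3.11 of PANX2 in EA.hy926 and 26.3 ± 4.01 in HMEC-1, so the lines overlapped in the make-up of the pannexins but not in that of the connexins.

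**Figure D3:**
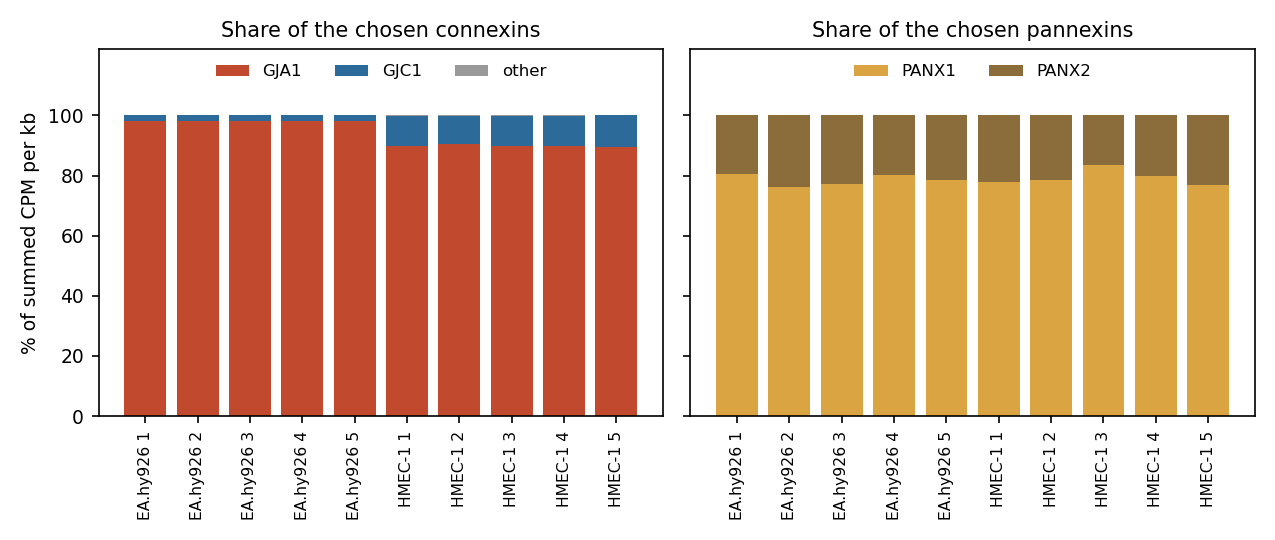
Share of each gene in the summed CPM per kb of the 5 connexins chosen (left, with GJA4, GJA5 and GJB2 together as other) and of PANX1 and PANX2 (right), as stacked bars for each library. GJC1 took 9.97% of the connexin total in HMEC-1 against 1.78% in EA.hy926 (22.1% against 4.44% without division by exon length), while PANX1 made up 79.2% and 78.6% of the pannexin total.

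The directions of the 4 tested genes were the same under all settings tried. When plain library totals replaced the TMM factors, which shifted the median log2FC of all genes by -0.13, the log2FC values became 0.86 for GJA1, -1.76 for GJC1, 0.57 for PANX1 and 0.63 for PANX2. Such a change of scaling moves all genes by nearly the same amount, so the kept directions of GJA1 and the pannexins are no added support.

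**Figure D4:**
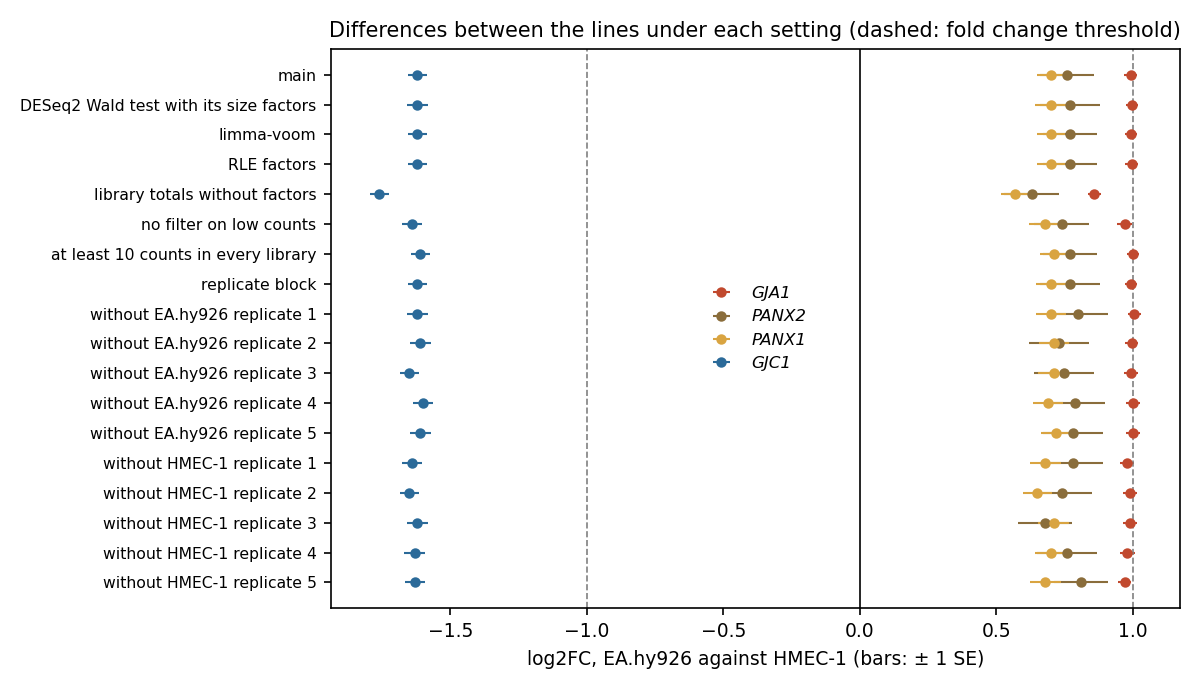
log2FC of EA.hy926 against HMEC-1 with ± 1 SE (x axis) for GJA1, GJC1, PANX1 and PANX2 under each setting (y axis), with dashed lines at the fold limit. GJC1 lay beyond the limit throughout, GJA1 lay at it (0.86 to 1.006), and PANX1 and PANX2 lay between 0 and the limit.

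Some of the chosen genes lie near relatives that had few reads. GJA4 lies 34487 bases from GJB5, and GJB2 lies between GJA3 and GJB6 (chr13:20138255-20232365), whose counts reached at most 9 in any library. GJA1, GJC1, PANX1 and PANX2, the genes with enough counts, had none of the family genes reported here within 1000000 bases. GJA5, GJC3 and GJD3, which had few reads or none, had none within that distance either.

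Genes with the most similar profile were taken from 13024 protein-coding genes by the Euclidean distance of log2 CPM over the 10 libraries, which compares level and difference together. Nearest to GJA1 were KRT7, a simple-epithelial keratin (distance 0.268, 622 and 313.5 CPM), and DSTN, an actin-depolymerizing protein (0.327). Nearest to GJC1 were STK38, a kinase (0.179, 29.5 and 95.8 CPM), and CENPU, a centromere protein (0.218). For PANX1 they were EPOR, the erythropoietin receptor (0.212, 17.3 and 10.6 CPM), and ZNF574 (0.325), and for PANX2 PIERCE1 (0.491) and C3orf33 (0.539). PANX2, with the fewest counts of the 4, had the largest distances to its nearest profiles.

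Connexins are anchored, trafficked and degraded with the help of scaffold and junction proteins, and all 19 genes reported from a list of such partners were tested. By adjusted p 11 were higher and 5 lower in EA.hy926, and 6 higher and 1 lower ones were called (36.8% of the list, against 35.5% of all genes), with a median log2FC of 0.45 against -0.01 over all genes. TJP1, which encodes the ZO-1 scaffold that binds the tail of connexin 43, was 2.31-fold higher in EA.hy926 (256 ± 8.07 against 111 ± 4.61 CPM, log2FC 1.21, SE 0.031, adjusted p = 2.6e-19, edgeR). CDH2, the N-cadherin of adherens junctions, was 3.83-fold higher in EA.hy926 (145 ± 3.02 against 37.8 ± 1.45 CPM, log2FC 1.94, SE 0.030, adjusted p = 6.1e-23, edgeR). The scaffold and the cadherin therefore had the direction of GJA1. CAV1, the caveolar coat protein found with connexin 43 in membrane rafts, was 2.15-fold higher in EA.hy926 (2321 ± 60.3 against 1079 ± 24.1 CPM, log2FC 1.10, adjusted p = 2.6e-20, edgeR), a log2FC that became 0.97 and lost its call with library totals. CCN3, a matricellular protein that binds connexin 43, was read 161 to 189 times per EA.hy926 library and 7 to 14 times per HMEC-1 library (log2FC 4.17, SE 0.15, adjusted p = 1.3e-16, edgeR). RAB20, a small GTPase linked to connexin 43 traffic, was read 3 to 11 times per EA.hy926 library and 202 to 283 times per HMEC-1 library (log2FC -5.26, SE 0.17, adjusted p = 2.9e-17, edgeR).

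Phosphorylation of the connexin tail sets how channels open and are removed, and all 13 genes of a list of connexin kinases were tested. By adjusted p 4 were higher and 6 lower in EA.hy926, and 2 in each direction were called (30.8% of the list, against 35.5% of all genes), with a median log2FC of -0.04 against -0.01 over all genes. The share called was thus near that of all genes. SRC, the tyrosine kinase that closes connexin 43 channels, was 2.74-fold higher in EA.hy926 (137 ± 1.78 against 50.2 ± 0.705 CPM, log2FC 1.45, adjusted p = 3.5e-22, edgeR). PRKACB, a catalytic subunit of protein kinase A, was 7.89-fold higher in EA.hy926 (166.5 ± 3.57 against 21.1 ± 1.86 CPM, log2FC 2.98, adjusted p = 1.1e-23, edgeR). PRKACA, the other catalytic subunit on the list, which was named after its values were seen, had the opposite direction (log2FC -1.17, SE 0.033, adjusted p = 1.4e-18, edgeR). CDK1, the mitotic kinase, was 2.37-fold higher in HMEC-1 (117 ± 4.35 against 276 ± 7.30 CPM, log2FC -1.24, adjusted p = 5.9e-20, edgeR).

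Notch signalling, shear-responsive KLF factors and SOX factors act on arterial identity and on GJA4 and GJA5, and all 16 genes of a list of such regulators were tested. By adjusted p 9 were higher and 7 lower in EA.hy926, and 6 in each direction were called (75.0% of the list, against 35.5% of all genes, or 19.1% higher and 16.4% lower), with a median log2FC of 0.38. The genes called were thus split evenly between the lines. EFNB2, the arterial ephrin ligand, was read 0 to 4 times per EA.hy926 library and 1350 to 1802 times per HMEC-1 library (adjusted p = 4.1e-23, edgeR), with 36.4% of its exonic bases under another annotated gene. KLF4, a factor induced by laminar flow, was 9.21-fold higher in HMEC-1 (3.05 ± 0.613 against 28.1 ± 0.945 CPM, log2FC -3.20, SE 0.083, adjusted p = 3.5e-19, edgeR). HEY1, a Notch target, was 5.02-fold higher in EA.hy926 (5.17 ± 0.492 against 1.03 ± 0.226 CPM, log2FC 2.33, SE 0.13, adjusted p = 5.3e-13, edgeR). HEY2, HES1 and KLF2 were named after their values were seen. The related HEY2 reached 1 count in EA.hy926 and 43 in HMEC-1 and was called lower. HES1, another Notch target, was also lower in EA.hy926 (log2FC -0.73, adjusted p = 6.3e-11, edgeR) without reaching the fold limit. KLF2 had the direction opposite to KLF4 (log2FC 0.995, adjusted p = 1.0e-17, edgeR), just inside the fold limit. The arterial genes of this list thus did not differ in 1 direction, while GJA4 and GJA5 were at or near 0 counts in both lines.

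ATP released through pannexin channels is read by purinergic receptors, and 11 of 14 genes of a list of pannexin partners and ATP sensors were tested. By adjusted p 4 were higher and 7 lower in EA.hy926, and 2 in each direction were called (36.4% of those tested, a share near the 35.5% of all genes), with a median log2FC of -0.44. P2RX4, an ATP-gated cation channel of endothelium, was 1.48-fold higher in HMEC-1 (8.90 ± 0.631 against 13.2 ± 0.734 CPM, log2FC -0.57, SE 0.061, adjusted p = 1.9e-08, edgeR) and did not reach the fold limit. P2RX7, the ATP-gated channel known to act together with PANX1, was read 0 to 2 times per EA.hy926 library and 16 to 25 times per HMEC-1 library (adjusted p = 2.6e-08, edgeR), with 33.0% of its exonic bases under another annotated gene. P2RY2, a G protein-coupled receptor for ATP and UTP, was 1.99-fold higher in EA.hy926 (18.7 ± 0.787 against 9.39 ± 0.379 CPM, log2FC 0.99, SE 0.051, adjusted p = 6.5e-14, edgeR), just inside the fold limit like GJA1. Of the exonic bases of P2RY2, 37.5% lie under another annotated gene. Between the lines PANX1 and P2RY2 were higher in EA.hy926, and P2RX4 and P2RX7 were higher in HMEC-1. The other receptors called on this list were named after their values were seen and had few counts. P2RX6 reached 35 counts in EA.hy926 and 2 in HMEC-1, and P2RY6 17 and 9, both called higher in EA.hy926. P2RX5 reached 3 and 41 and was called lower. The P2X receptors thus differed in both directions.

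Other proteins also form large pores that pass ATP or anions, and 7 of 11 genes of such a list were tested. By adjusted p 5 were higher and 1 lower in EA.hy926, and 3 higher and 1 lower ones were called (57.1% of those tested, against 35.5% of all genes, or 19.1% higher and 16.4% lower), with a median log2FC of 0.77. CALHM5, of the calcium homeostasis modulator family, was 6.85-fold higher in EA.hy926 (20.9 ± 1.27 against 3.04 ± 0.420 CPM, log2FC 2.78, SE 0.077, adjusted p = 1.3e-18, edgeR). LRRC8B, a subunit of volume-regulated anion channels, was 5.56-fold higher in EA.hy926 (6.57 ± 1.01 against 1.18 ± 0.254 CPM, log2FC 2.48, SE 0.14, adjusted p = 2.9e-13, edgeR). CALHM2, another calcium homeostasis modulator, was 2.31-fold higher in HMEC-1 (15.8 ± 0.522 against 36.4 ± 1.08 CPM, log2FC -1.21, SE 0.040, adjusted p = 2.7e-17, edgeR). Members of the CALHM family thus differed in opposite directions.

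**Figure D5:**
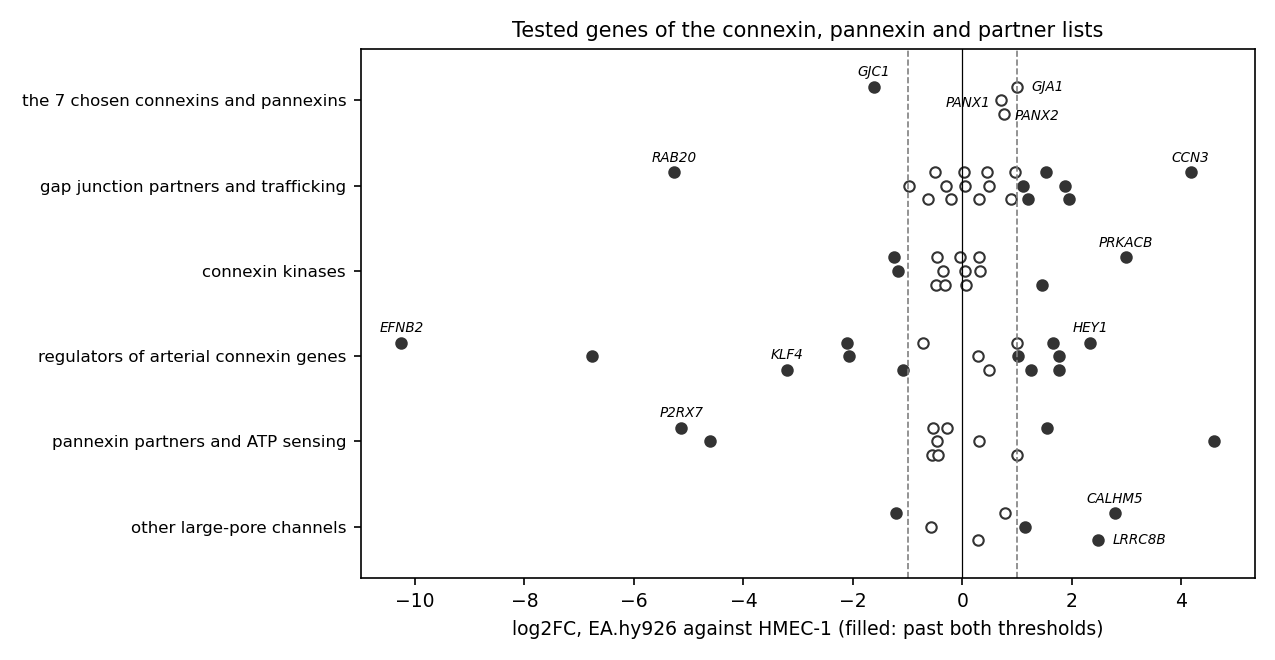
log2FC of EA.hy926 against HMEC-1 (x axis) for the tested genes of each list (y axis), filled where both thresholds were passed, with dashed lines at the fold limit. GJC1 was the connexin lower in EA.hy926, and the fitted values of EFNB2 and P2RX7, with at most 4 and 2 counts per EA.hy926 library, depend on the prior count and are no measure of size. The same holds for HEY2 and P2RX5, with at most 1 and 3 counts per EA.hy926 library, and for P2RX6, with at most 2 per HMEC-1 library.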

How the data were processed

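RNA-seq libraries of 2 untreated endothelial lines, EA.hy926 and HMEC-1, were grouped by the sample labels, 5 per line. The values the authors deposited are raw counts of reads per gene, neither normalized nor filtered. The methods name HTSeq as the counter, whereas the submitters' processing notes list fastp, HISAT2, featureCounts, DESeq2 and GRCh38. The annotation release and the strand setting are not given in the sources used here, and overlap with other genes could move reads between them, so bedtools 2.31.1 was used to find the share of each gene's exonic bases under other genes, whatever their strand.

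Ensembl IDs were looked up in GENCODE 44 for symbols, positions and lengths (56434 of 60448 genes matched). The filter on low counts was filterByExpr with a minimum count of 10 and a minimum total of 15. The test was the quasi-likelihood F test of edgeR 4.0.16 (glmQLFit, glmQLFTest) under R 4.3.3 on all 10 libraries with TMM scaling and the line as the only term, and Benjamini-Hochberg adjustment covered 16310 genes. Standard errors were obtained by dividing the absolute log2FC by the root of the F statistic. CPM per kb was CPM over the length of merged exons. Log2 CPM values carried a prior count of 2. Fold bounds used 3 counts per library in place of a line at or under 3 counts. At 33391640 to 43877224 counts per library, 3 counts were 0.0651 to 0.0904 CPM. The script was tested on simulated counts. Alternatives were DESeq2 1.42.0, limma-voom (limma 3.58.1), RLE factors, library totals, other filters, glmTreat, a replicate block and leaving out each library. Replicates of a line differed by more than counting noise in all 20 pairs. Tables were handled with pandas 2.3.3 in Python 3.11.15.

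Genes named were the 7 chosen genes, other family genes with more than 3 counts in any library, of each pathway list the 3 genes with the largest absolute log2FC past both thresholds among those with a mean CPM of at least 1, TJP1, CAV1, CCN3, SRC, P2RX4, P2RX7 and P2RY2 whatever their values, and the 2 nearest profiles of each tested gene. Another 5 genes were left out of the lists and of every count, share and order over them, and are not reported. GJD3-AS1, GJA1P1 and marker genes were named for checks, and PRKACA, HEY2, HES1, KLF2, P2RX5, P2RX6 and P2RY6 after their values were seen. The genes, lists and tests were chosen with earlier results of these data known, and the lists do not serve as independent evidence of a direction.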

Additional observations from a re-analysis of the deposited data

Results flagged for a closer look

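Among the 7 chosen connexin and pannexin genes, 1 library stood apart: GJA5 had 0.0651 CPM, or 3 counts, in HMEC-1 replicate 3, while the other 4 libraries of the line were at 0. GJC3 had 0.244 CPM in EA.hy926 replicate 1, above the others at 0.13 to 0.162 CPM, and GJD3 had 0.172 CPM in HMEC-1 replicate 2, above the others at 0.0785 to 0.0981 CPM. CDH2 had 139 CPM in EA.hy926 replicate 2, below the other 4 libraries of the line at 145 to 147 CPM. In EA.hy926 replicate 4, EFNB2 had 0.104 CPM, apart from the other 4 libraries of the line at 0 to 0.0271 CPM. In EA.hy926 replicate 2, P2RX7 had 0.0603 CPM while the other 4 libraries were at 0. All of these but CDH2 rest on at most 9 counts, and the rule applied, Dixon's gap over range with a limit of 0.71 for 5 libraries in 56 groups checked, marks about 1 in 20 groups by chance.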

How the results depend on the processing

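Of 584 alternative values, 561 kept their direction and their side of the threshold or stayed within the limits set for counts and shares, and no log2FC reversed. The number of genes called was 9312 with no filter on low counts, 4975 of them higher in EA.hy926, and 3255 with at least 10 counts in every library, 1857 of them higher, since the filters change which genes are tested. Of the 7 chosen genes 2 were called with no filter (GJC1 and GJA4, the latter at a fitted log2FC of -3.31 that depends on the prior count) and 2 with at least 10 counts in every library (GJC1 and GJA1, at 1.001). When 1 library was left out, 1 to 2 were called, and the log2FC of GJA1 ran from 0.97 to 1.006. Without a filter 2 of the other connexins and pannexins were called, and with at least 10 counts in every library 1 gene of the pannexin partners and ATP sensors was. CAV1 had a log2FC of 0.97 with library totals, and P2RY2 reached 1.001 with at least 10 counts in every library and 1.02, 1.006 and 1.002 without EA.hy926 replicates 1, 4 and 5. With library totals 52.3% of the genes called were lower in EA.hy926, against 46.2%. Without the exon length the share of GJA1 was 95.6% in EA.hy926 and 77.8% in HMEC-1 and that of GJC1 4.44% and 22.1%, and with the other reported connexin genes in the total GJA1 made up 98.1% in EA.hy926. The replicate numbers gave no sign of pairing, with correlations of same-numbered deviations from -0.0228 to 0.0389 and 2 of 5 numbers correlating best with their own. With a replicate block 5786 genes were called and the log2FC was 0.99 for GJA1, -1.62 for GJC1, 0.70 for PANX1 and 0.77 for PANX2, with no call changed among them. DESeq2 called 5786 genes, limma-voom 5802 and glmTreat 5021. Depth limits GJA4, GJA5 and GJB2, where at most 9 counts were seen.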
